A study of Mus musculus with 6 samples.

Results

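The 10 genes described here are known for their high activity in the epithelium of the choroid plexus: *Ttr*, *Enpp2*, *Kl*, *Prlr*, *Folr1*, *Aqp1*, *Kcnj13*, *Slc4a5*, *Clic6* and *Otx2*. They were taken by symbol from a table of 55401 genes, and each symbol matched 1 row. The libraries came from cells of the brain of MRL/lpr and MRL/mpj mice aged 6 weeks, with 3 libraries per strain and no treatment in the labels. The MRL/lpr strain has the *Fas* mutation lpr and develops a lupus-like disease, and MRL/mpj is its control strain with intact *Fas*. In both strains the cells were separated on a Percoll gradient and then selected with magnetic beads for CD11b, which sits on the surface of microglia and of other cells of the myeloid lineage. The libraries are described as microglia of 3 mice per strain, but the labels tie no library to an animal or a pool, so p-values measure the spread between these libraries.

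The choroid plexus is a fold of tissue in the brain ventricles, in which a single layer of epithelial cells surrounds a core of fibroblasts, vessels and macrophages. The epithelium secretes cerebrospinal fluid by moving ions and water, carries hormones and vitamins from blood into that fluid, and releases proteins of its own. Its cells are not myeloid and do not belong to the CD11b-selected population that the labels describe. In bulk RNA, fewer cells of a type and less RNA per cell cannot be told apart.

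Total counts ranged from 45481609 to 49846634 per library. *Fas* had 282 to 461 counts in MRL/lpr and 362 to 432 in MRL/mpj (log2 fold change -0.06, adjusted p = 0.887), so its count does not check the label. The methods give the MRL mice of both strains as female. *Xist*, the RNA that silences an X chromosome in females, had 8886 to 11319 counts in MRL/lpr and 27 to 38 in MRL/mpj. Y-linked genes were counted in all libraries. *Kdm5d* had 924 to 1153 counts in MRL/lpr and 1768 to 1833 in MRL/mpj (log2 fold change -0.59), and *Eif2s3y*, *Ddx3y* and *Uty* had log2 fold changes of -0.34, -0.27 and 0.07. Y-linked counts in both strains go against the stated sex, and MRL/lpr held *Xist* together with Y-linked transcripts, so strain and the sex of the animals cannot be told apart. Markers of microglia summed to 22139 to 24666 CPM (counts scaled to the size of the library) in MRL/lpr and 25485 to 26187 in MRL/mpj. Among them *Cx3cr1* was at 2817 CPM in MRL/lpr replicate 2, against 226 and 247 in MRL/lpr replicates 1 and 3. It was at 558 to 564 CPM in MRL/mpj. One library stood apart from the others of its strain in base composition. Across 19527 genes, the deviation of each library from the mean of its own strain was correlated with the GC content of the transcript. The correlation was 0.11 in MRL/lpr replicate 3 and -0.06 to 0.03 in the other libraries. Results that MRL/lpr replicate 3 moves most are also given without it.

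All 10 genes had lower mean levels in MRL/lpr, and 9 of them fell past both thresholds, a log2 fold change of -1 or less and an adjusted p under 0.05. Of all 19554 genes tested, 3.66% did so. *Aqp1* was the exception. The median log2 fold change of the 10 genes was -1.49, a 2.8-fold lower level, and that of all genes tested was -0.01. The differences ran from 1.74-fold in *Aqp1* to 4.71-fold in *Prlr*. Every MRL/lpr library lay below every MRL/mpj library in the same 9 genes, and 19.4% of all genes tested had that order. Without MRL/lpr replicate 3 all 10 genes passed both thresholds, and without MRL/lpr replicate 1 there were 8.

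**Figure D1:**
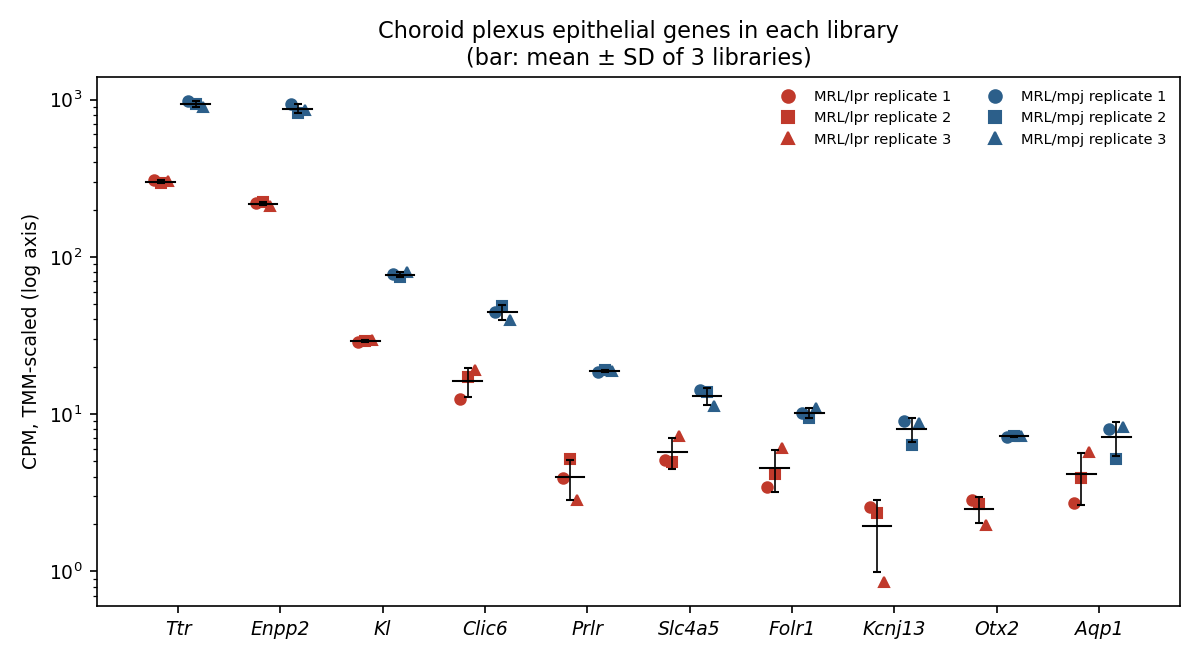
CPM of the 10 genes (log axis) in each of the 3 MRL/lpr and 3 MRL/mpj libraries, with the mean and SD of each strain, ordered by the mean in MRL/mpj. The strains overlap in *Aqp1* and in no other gene, and *Kcnj13* in MRL/lpr replicate 3 is the lowest value at 0.861 CPM.

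Secreted products gave most of the signal. *Ttr* (chromosome 18, 20665280 to 20674321 on GRCm38) encodes transthyretin, the carrier of thyroid hormone and retinol in cerebrospinal fluid, and was the most abundant of the 10 genes. It had 14442, 13847 and 12678 counts in MRL/lpr replicates 1 to 3, against 50465, 47136 and 46896 in MRL/mpj. The strains were far apart and the libraries of each strain lay close together. Its level was 301 ± 6.68 CPM in MRL/lpr and 941 ± 40.3 CPM in MRL/mpj (mean ± SD, n = 3 each). In edgeR the log2 fold change was -1.64 with an SE of 0.06 and an adjusted p of 3.21e-07.

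*Enpp2* (chromosome 15, 54838901 to 54952892) encodes autotaxin, the secreted enzyme that makes lysophosphatidic acid. Its counts were 10321, 10495 and 8872 in MRL/lpr and 48130, 41300 and 44974 in MRL/mpj. No library came near those of the other strain. The level was 218 ± 5.45 CPM in MRL/lpr and 875 ± 56 CPM in MRL/mpj (mean ± SD, n = 3). The log2 fold change was -2.00 (SE 0.07, adjusted p = 1.96e-07 in edgeR), and its 95% interval of -2.16 to -1.85 did not meet that of *Ttr*, -1.78 to -1.51.

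Together *Ttr* and *Enpp2* held 87.5% to 91% of the counts of the 10 genes in every library. The 10 genes summed to 588, 586 and 589 CPM in MRL/lpr and to 2107, 1952 and 1949 CPM in MRL/mpj. The sum was thus 3.41-fold lower in MRL/lpr, and the MRL/lpr libraries differed among themselves far less than the strains did. As a share of all counts in a library, the 10 genes made up 0.0541% to 0.0576% in MRL/lpr and 0.204% to 0.219% in MRL/mpj. On the deposited FPKM scale, which divides by gene length, the levels of the 10 genes spanned a 650-fold range in MRL/mpj. *Ttr* stood at 739 and *Enpp2* at 141 FPKM there, and *Otx2* and *Prlr* lay at the lower end at 1.58 and 1.14 FPKM.

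*Kl* (chromosome 5, 150952607 to 150993817) encodes klotho, the co-receptor of a hormone of phosphate balance, which the choroid plexus also sheds into the fluid. Its counts were 1361, 1373 and 1233 in MRL/lpr and 3986, 3706 and 4158 in MRL/mpj. The MRL/lpr libraries were nearly alike, at 29.2 ± 0.279 CPM, against 77.1 ± 2.91 CPM in MRL/mpj (mean ± SD, n = 3). This gave a log2 fold change of -1.40 (SE 0.08, adjusted p = 3.11e-06 in edgeR).

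Both receptors that carry or sense blood-borne molecules fell. *Prlr* (chromosome 15, 10177238 to 10349180), the prolactin receptor, had the largest difference among the 10 genes. It had 185, 243 and 119 counts in MRL/lpr and 957, 955 and 973 in MRL/mpj. The MRL/mpj libraries agreed closely, and the MRL/lpr libraries were spread, with replicate 3 lowest. The log2 fold change was -2.24 with an SE of 0.20, a 95% interval of -2.70 to -1.78 and an adjusted p of 6.69e-05 in edgeR, and it was -2.04 without MRL/lpr replicate 3.

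*Folr1* (chromosome 7, 101858331 to 101870788) encodes folate receptor alpha, which moves folate from blood to cerebrospinal fluid. It had 163, 196 and 254 counts in MRL/lpr and 522, 472 and 566 in MRL/mpj. Here MRL/lpr replicate 3 was the highest of its strain and still below each MRL/mpj library. Its log2 fold change was -1.15 (SE 0.22, adjusted p = 0.00512 in edgeR), and without MRL/lpr replicate 1 it was -0.99 (adjusted p = 0.0163), which misses the fold threshold. Without MRL/lpr replicate 3 it was -1.41.

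Among the 4 genes of water and ion transport, *Clic6*, *Kcnj13* and *Slc4a5* fell. *Clic6* (chromosome 16, 92485736 to 92541243), of the chloride intracellular channel family, had 589, 810 and 796 counts in MRL/lpr and 2309, 2442 and 2051 in MRL/mpj. Its log2 fold change was -1.45 (SE 0.16, adjusted p = 0.000186 in edgeR). *Slc4a5* (chromosome 6, 83219828 to 83304945), a sodium bicarbonate cotransporter of the membrane facing the ventricle, had 240, 233 and 304 counts in MRL/lpr and 731, 689 and 584 in MRL/mpj. Neither gene overlapped between strains, and the log2 fold change of *Slc4a5* was -1.18 (SE 0.19, adjusted p = 0.0021 in edgeR).

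*Kcnj13* (chromosome 1, 87386363 to 87394729) encodes the inward rectifier potassium channel Kir7.1. Its counts were 121, 111 and 36 in MRL/lpr and 463, 320 and 458 in MRL/mpj. MRL/lpr replicate 3 was far below the other libraries of its strain, and all lay below MRL/mpj. By edgeR the log2 fold change was -2.06 with an SE of 0.37, the widest error of the 10 genes (adjusted p = 0.00415), and without MRL/lpr replicate 3 it was -1.71 (adjusted p = 0.00117). Its exons share 623 of 1270 bases with *Gigyf2* on the opposite strand, which had 2452 to 3353 counts in MRL/lpr and 3023 to 4339 in MRL/mpj. The library kit in the labels keeps strand, but the strand setting of the counting is not given in the sources used here, so the *Kcnj13* counts are uncertain.

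*Aqp1* (chromosome 6, 55336432 to 55348555), the water channel of the membrane facing the ventricle, did not pass the test. It had 129, 185 and 240 counts in MRL/lpr and 414, 259 and 432 in MRL/mpj. After scaling, MRL/lpr replicate 3 at 5.74 CPM lay above MRL/mpj replicate 2 at 5.18 CPM. The edgeR log2 fold change was -0.80 with an SE of 0.29, a 95% interval of -1.46 to -0.13 and an adjusted p of 0.0941. Without MRL/lpr replicate 3 it was -1.10 (adjusted p = 0.0256).

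*Otx2* (chromosome 14, 48657677 to 48673819) is the homeobox transcription factor that the choroid plexus needs for its formation and upkeep. It had 134, 126 and 83 counts in MRL/lpr and 367, 365 and 376 in MRL/mpj, so the MRL/mpj libraries were almost equal and all above MRL/lpr. It had a log2 fold change of -1.53 (SE 0.21, adjusted p = 0.0007 in edgeR). OTX proteins bind DNA at the letters TAATCC. In the RefSeq promoter table (GRCm38.p6), 11 windows of 250 bases before a gene start belonged to 6 of the 10 genes, namely *Kcnj13*, *Kl*, *Aqp1*, *Slc4a5*, *Otx2* and *Prlr*. The letters TAATCC or their reverse complement GGATTA occurred in 1 of these 11 windows and in 6.25% of all 32851 windows. The match lies before an alternative start of *Otx2* itself, at chr14:48665295-48665340 on the minus strand, and its motif begins 211 bases before that start. It is shown because *Otx2* is the one transcription factor among the 10 genes, with the motif in capitals and 20 bases on each side:

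Otx2: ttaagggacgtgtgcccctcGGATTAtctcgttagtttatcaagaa

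A match is a description of the letters in the window and not a bound site.

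**Figure D2:**
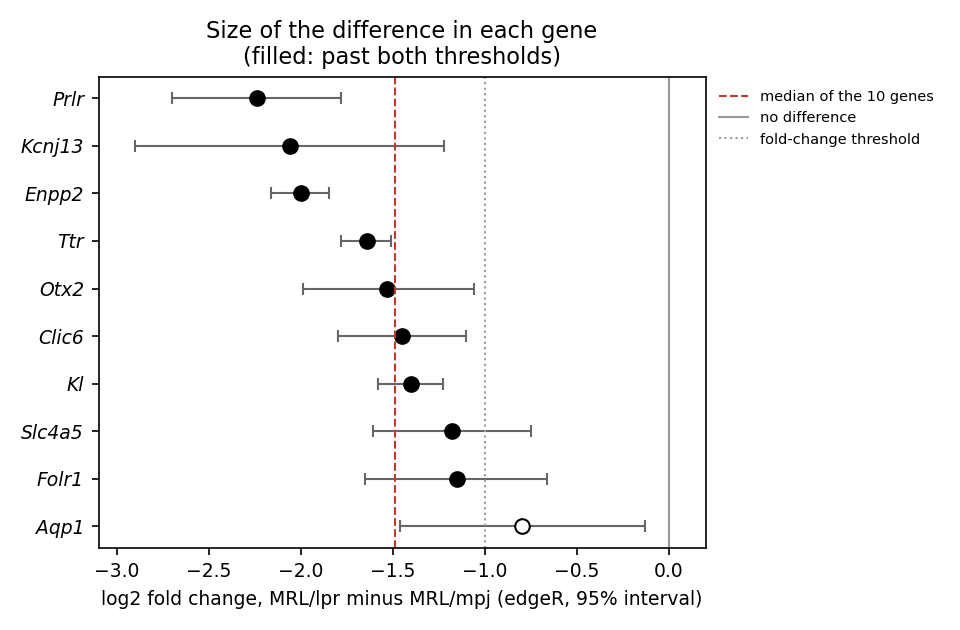
Log2 fold change of each gene in edgeR with its 95% interval (horizontal axis), ordered by size, with filled points past both thresholds. The dashed line is the median of the 10 genes, -1.49, which lies inside 6 of the 10 intervals, and *Prlr* at -2.24 and *Aqp1* at -0.80 are the ends of the range.

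Whether the 10 genes fell by one common factor was examined within libraries. The log2 fold changes had an SD of 0.45 over the genes, against a median SE of 0.20 for a single gene, and the median of -1.49 lay inside the 95% interval of 6 of the 10. For each gene and library, the log2 CPM was then set against the mean log2 CPM of the other 9 genes in the same library. A single factor for all would leave this relative level equal in both strains, whatever the normalization. As every gene is part of the reference of the others, the 10 differences between strains are not independent.

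These differences sum to 0 by construction, so a lower relative level in some genes fixes a higher one in others. *Enpp2* lay at 4.75, 4.63 and 4.65 above the other genes in MRL/lpr (log2 units) and at 5.19, 5.14 and 5.13 in MRL/mpj. All MRL/lpr values were thus lower, with a difference of -0.48. *Prlr* lay at -1.69, -1.41 and -2.25 in MRL/lpr and at -1.09, -0.89 and -1.02 in MRL/mpj. Again every MRL/lpr library was lower, and the difference was -0.78. *Aqp1* had relative levels of -2.27, -1.84 and -1.13 in MRL/lpr and -2.43, -2.98 and -2.32 in MRL/mpj, a difference of 0.83. *Kl* also lay higher relative to the others in each MRL/lpr library, at 1.50, 1.37 and 1.49 against 1.20, 1.28 and 1.31, a difference of 0.19.

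In these 4 genes the relative levels did not overlap between strains. The two-sided exact permutation test gave each of them p = 0.1 (0.25 after Benjamini-Hochberg adjustment over the 10 genes), which is the smallest value that the 10 splits of 3 against 3 libraries can give. In the other 6 genes the relative levels overlapped. *Ttr* and *Otx2* were nearest to the common fall, with differences of -0.08 and 0.04.

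The design of that test cannot reach a p under 0.05. So edgeR was also fitted to all genes with the mean log count of the other 9 genes as the library size. That choice was made after the data were seen. The median log2 fold change was -1.49 in the genes compared and -0.01 in all genes tested, so this library size raises most genes in MRL/lpr. Adjustment over all genes is then weak, and an adjusted p of this fit can lie close to the unadjusted one. The p-values were not adjusted over only the genes compared. By this fit *Enpp2* fell more than the mean of the other 9 genes (log2 difference -0.48, 95% interval -0.66 to -0.29, adjusted p = 0.000186). *Prlr* did too (-0.75, 95% interval -1.19 to -0.31, adjusted p = 0.00452). Each passed in all 6 fits that left out 1 library, with differences of -0.51 to -0.45 in *Enpp2* and -0.95 to -0.55 in *Prlr*. *Aqp1* was higher relative to the other genes in MRL/lpr (0.87, 95% interval 0.20 to 1.55, adjusted p = 0.0213). Whether *Aqp1* would pass after adjustment over only the genes compared was not tested. With 1 library left out the difference of *Aqp1* ran from 0.51 to 1.10. It was 0.51 (adjusted p = 0.0956) when MRL/lpr replicate 3 was left out and 0.70 (adjusted p = 0.0804) when MRL/mpj replicate 2 was, so its call rests on those libraries. The other 7 genes did not pass, with adjusted p from 0.0722 in *Slc4a5* to 0.839 in *Otx2*. *Folr1* did with MRL/lpr replicate 1 left out (adjusted p = 0.0322), and *Slc4a5* with MRL/lpr replicate 2 left out (adjusted p = 0.0265). For these values too, adjustment over only the genes compared was not tested. For *Kl* the adjusted p was 0.109. *Kcnj13* had a difference of -0.69 by its relative levels, which was -0.14 without MRL/lpr replicate 3.

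**Figure D3:**
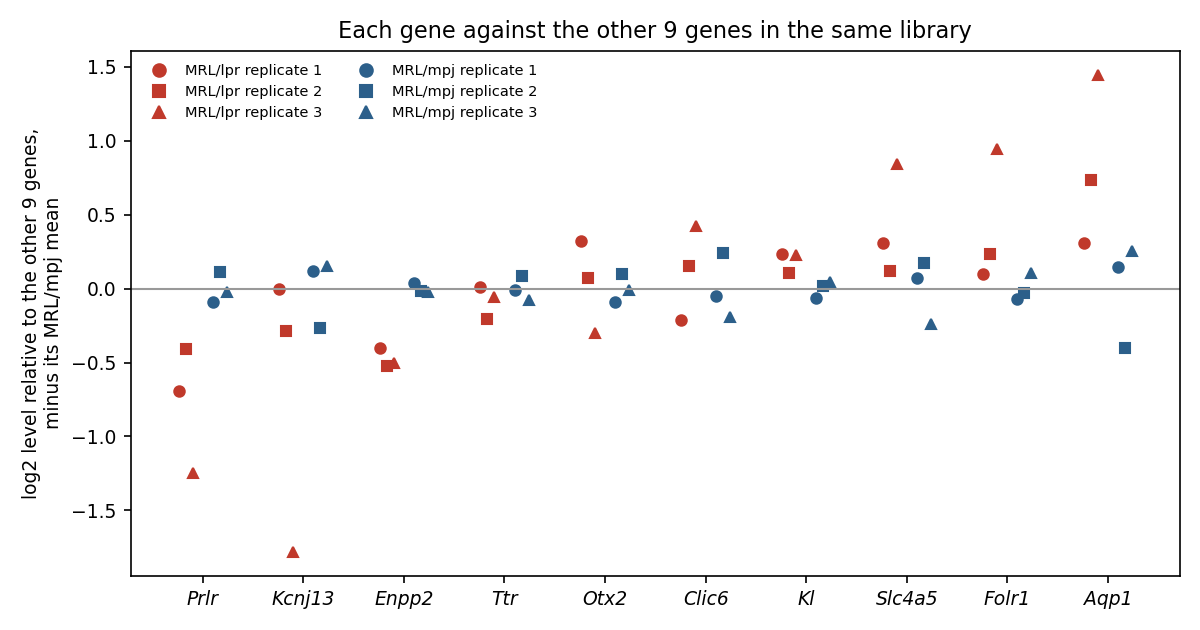
Log2 level of each gene relative to the mean of the other 9 genes in the same library, drawn as the distance from its mean in MRL/mpj (vertical axis), for the 3 libraries of each strain. A common fall would put the MRL/lpr points at 0, and *Prlr* and *Enpp2* lie below it and *Kl*, *Slc4a5*, *Folr1* and *Aqp1* above it in all MRL/lpr libraries.

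Raw counts can also be set against *Ttr* alone, with no scaling at all. For every 100 counts of *Ttr* there were 71.5, 75.8 and 70 counts of *Enpp2* in MRL/lpr and 95.4, 87.6 and 95.9 in MRL/mpj. There were 1.28, 1.75 and 0.939 counts of *Prlr* in MRL/lpr and 1.9, 2.03 and 2.07 in MRL/mpj. The ranges of the strains did not touch in either gene. *Kl* ran the opposite way, with 9.42, 9.92 and 9.73 counts in MRL/lpr and 7.90, 7.86 and 8.87 in MRL/mpj. *Aqp1* overlapped between strains on this measure, with 0.893, 1.34 and 1.89 counts in MRL/lpr and 0.82, 0.549 and 0.921 in MRL/mpj.

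The order of the fold changes followed the base composition of the transcripts, a feature looked at after the values were seen. Across the 10 genes, the log2 fold change had a Pearson correlation of 0.90 and a Spearman correlation of 0.89 with the GC content of the longest transcript, from 39.4% in *Prlr* to 54.9% in *Aqp1*. The points share their libraries and genes are not independent replicates, so no p is given. Without MRL/lpr replicate 3 the correlations were 0.83 and 0.73, and with the GC trend of each library removed they were 0.89 and 0.87. In 27 other genes of the choroid plexus epithelium they were 0.23 and 0.25, and over all 19527 genes with a GC content they were 0.04 and 0.08. With transcript length the Spearman correlation of the 10 genes was -0.01. By CPM, MRL/lpr replicate 3 was the highest library of its strain in *Folr1*, *Aqp1*, *Slc4a5* and *Clic6*, the most GC-rich of the 10, and by little in *Kl*, and it was the lowest in *Prlr*, *Enpp2*, *Otx2* and *Kcnj13*. Without that library the SD of the log2 fold changes over the 10 genes was 0.29 instead of 0.45. The part of base composition in the unequal falls was not tested.

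The contrast in bases can be seen in coding sequence of the genes at both ends of that range. Each line below is the middle 90 bases of the longest coding exon stretch in the longest GENCODE M21 transcript, 5′ to 3′ on the coding strand of the GRCm38 reference, with G and C in capitals. *Prlr* is taken from exon 10 at chr15:10328727-10328816 (plus strand) with 45.6% GC, and *Enpp2* from exon 18 at chr15:54862545-54862634 (minus strand) with 47.8%. *Aqp1* is from exon 1 at chr6:55336637-55336726 (plus strand) with 58.9%, and *Folr1* from exon 7 at chr7:101858560-101858649 (minus strand) with 61.1%.

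Prlr: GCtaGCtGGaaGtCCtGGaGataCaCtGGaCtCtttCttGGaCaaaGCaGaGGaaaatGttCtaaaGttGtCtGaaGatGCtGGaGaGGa
Enpp2: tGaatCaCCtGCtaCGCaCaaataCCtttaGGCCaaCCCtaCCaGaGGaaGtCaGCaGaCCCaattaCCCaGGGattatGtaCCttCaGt
Aqp1: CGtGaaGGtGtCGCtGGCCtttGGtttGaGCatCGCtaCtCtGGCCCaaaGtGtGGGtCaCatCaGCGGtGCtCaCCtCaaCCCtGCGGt
Folr1: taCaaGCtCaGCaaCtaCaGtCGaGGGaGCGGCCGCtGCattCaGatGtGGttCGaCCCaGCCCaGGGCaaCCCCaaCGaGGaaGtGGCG

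**Figure D4:**
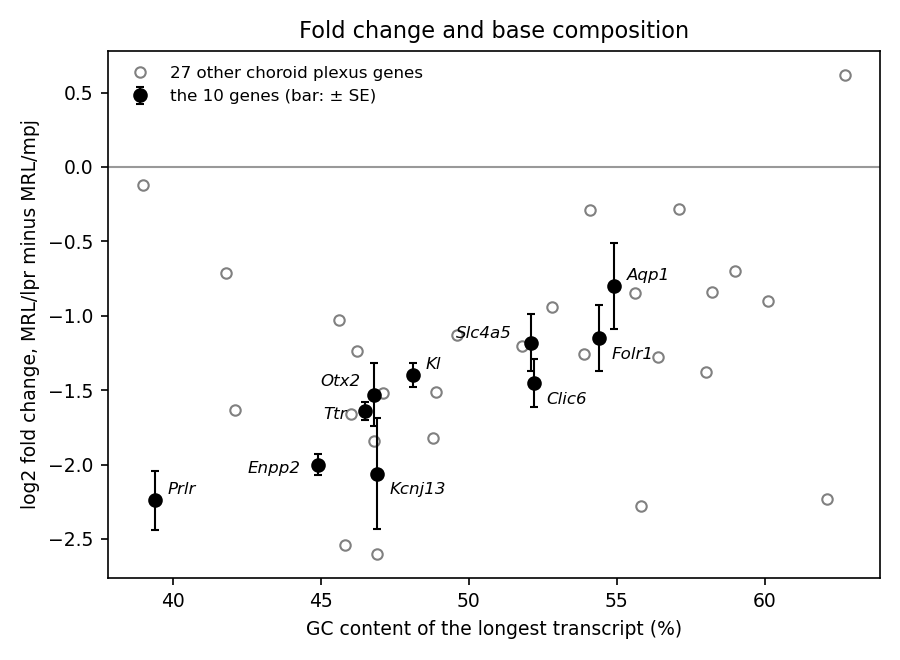
Log2 fold change in edgeR (vertical axis) against the GC content of the longest transcript in percent (horizontal axis), for the 10 genes with SE bars and for 27 other choroid plexus genes as open circles. The 10 genes run upward from *Prlr* at 39.4% GC to *Aqp1* at 54.9%, and the other genes are scattered (Pearson correlation 0.23).

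Many of 27 other genes of the same epithelium also fell in MRL/lpr. Of these, 14 passed both thresholds with a lower level and 0 with a higher one, against 3.66% and 4.67% of all genes tested, and their median log2 fold change was -1.24. By the adjusted p alone 19 were lower, against 9.06% of all genes. The insulin-like growth factor gene *Igf2* fell from 105 ± 3.56 to 21.8 ± 9 CPM (mean ± SD, n = 3, log2 fold change -2.28), and *Igfbp2*, which encodes a binding protein of such factors, had a log2 fold change of -2.23. *Kcne2*, a potassium channel subunit of the membrane facing the ventricle, had the lowest log2 fold change of the 14 at -2.54. The tight junction gene *Cldn2* was at -1.82, the serotonin receptor gene *Htr2c* at -1.63, and *Sostdc1*, an inhibitor of BMP and Wnt signalling, at -1.66. Also past both thresholds were *Col8a1* at -1.84, *Tmem72* at -1.52, *Car12* at -1.51, *Krt18* at -1.28, *Calml4* at -1.26, *F5* at -1.24, *Slc13a4* at -1.20 and *Trpm3* at -1.03.

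Some genes of that list did not pass the fold threshold. *Ace*, the angiotensin-converting enzyme and among the 3 most abundant of the list, had 1900, 2085 and 2383 counts in MRL/lpr and 4369, 4292 and 4433 in MRL/mpj. Its log2 fold change was -0.85 (adjusted p = 0.000973 in edgeR), and that of *Cab39l* was -0.71 (adjusted p = 0.000465). The tight junction genes *Cldn1* and *Cldn3* did not pass, at -0.12 (adjusted p = 0.819) and 0.62 (adjusted p = 0.671). The list ran from -2.60 to 0.62, a wider span than in the 10 genes. *Lmx1a* and *Steap1* had 0 counts in MRL/lpr replicate 1.

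A further list held 14 transporters and enzymes of cerebrospinal fluid secretion. Of these, 3 fell past both thresholds, against 3.66% of all genes tested, and the median log2 fold change was -0.14. They were *Atp1b1*, a subunit of the sodium pump (-1.17), *Slc4a10*, a sodium bicarbonate transporter (-1.07), and *Car2*, a carbonic anhydrase (-1.23). By the adjusted p alone 6 of the 14 were lower and 2 higher, against 9.06% and 11.1% of all genes tested. *Slc12a2*, the sodium, potassium and chloride cotransporter, had a log2 fold change of -0.72 (adjusted p = 3.46e-05). The 2 higher genes were the bicarbonate transporter *Slc4a7* at 0.41 (adjusted p = 0.0102) and the potassium channel gene *Kcna3* at 0.81 (adjusted p = 0.0114).

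**Figure D5:**
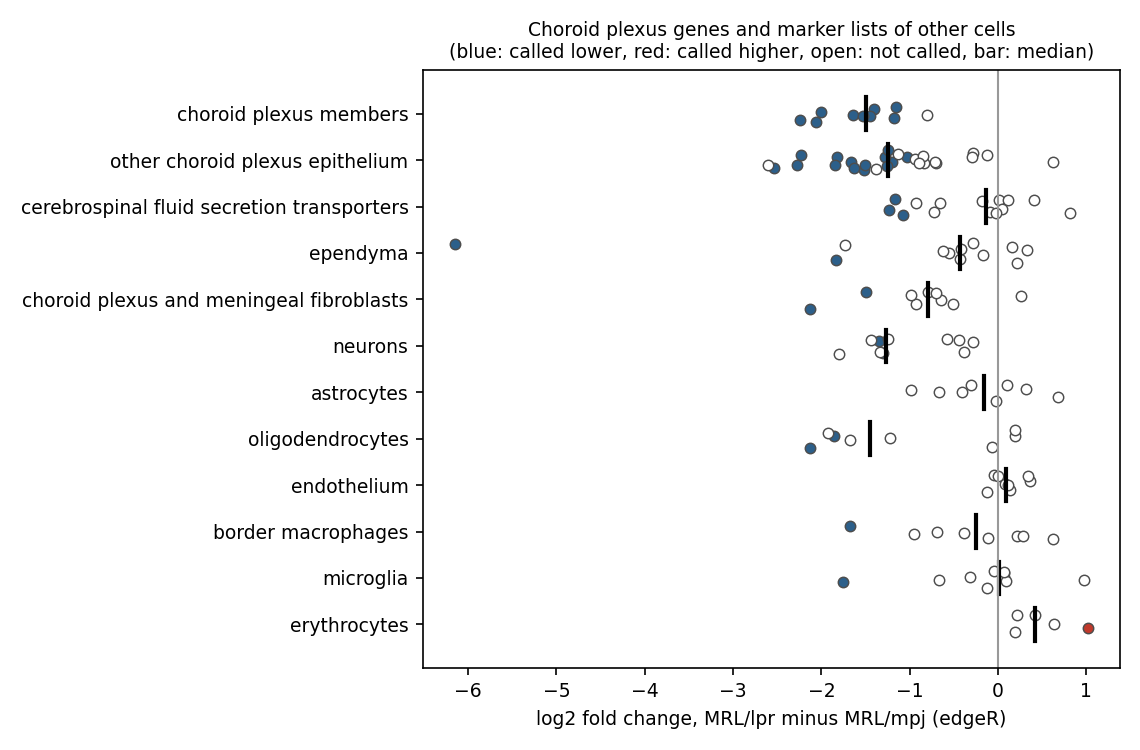
Log2 fold changes in edgeR (horizontal axis) of the 10 genes, listed as choroid plexus members, and of the genes of 11 marker lists, with a bar at the median of each list. The medians of the 10 genes and of the other choroid plexus epithelium are -1.49 and -1.24, neurons and oligodendrocytes are at -1.27 and -1.45, and microglia are at 0.01.

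Lists of markers of other cells that a CD11b selection could carry over are set beside these values, and their counts of genes lower past both thresholds are to be read against the same 3.66% of all genes tested. Ependyma, the ciliated lining of the ventricles, had 2 of 12 genes lower past both thresholds and a median log2 fold change of -0.43, and its genes summed to 35.4 to 38.9 CPM in MRL/lpr and 73.5 to 81.4 in MRL/mpj. One gene carried most of that difference. *Sspo*, which encodes the secreted SCO-spondin of the subcommissural organ, had 16, 36 and 14 counts in MRL/lpr and 1476, 1806 and 2011 in MRL/mpj. The other was *Dynlrb2*, at a log2 fold change of -1.83. *Foxj1*, the regulator of motile cilia, had a log2 fold change of -0.43 (adjusted p = 0.151).

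Fibroblast markers of the choroid plexus and meninges summed to 79.1 to 105 CPM in MRL/lpr and 139 to 148 in MRL/mpj, with 2 of 9 tested lower (*Dcn* and *Col3a1*, genes of the extracellular matrix). *Vtn* alone held most of both sums, at 56.1 ± 7.58 CPM in MRL/lpr and 91 ± 3.09 in MRL/mpj (mean ± SD, n = 3). Its log2 fold change of -0.70 did not pass the fold threshold. *Dpep1*, the tenth gene of the list, had 4 counts at most in any library and was not tested. Neuronal markers summed to 37.4 to 43.5 and 61.3 to 67.2 CPM, with 2 of 10 lower (*Snap25* and *Syt1*, of synaptic vesicle release) and a median log2 fold change of -1.27. Oligodendrocyte markers summed to 131 to 153 and 166 to 199 CPM, with 2 of 8 lower (the myelin gene *Mobp* among them) and a median of -1.45. The 3 most abundant of them did not pass, with *Mbp* at -0.07, *Cnp* at 0.19 and *Mag* at 0.19, while *Mog*, *Ermn* and *Cldn11* had at most 124 counts in any library. Of these markers *Mog*, *Rbfox3*, *Gad2* and *Lum* each had 0 counts in 1 MRL/lpr library.

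Other lists showed smaller medians. Of 8 astrocyte markers 0 passed both thresholds in either direction, with a median of -0.16, and their sum was 118 to 164 CPM in MRL/lpr and 198 to 205 in MRL/mpj. Most of that gap was the glutamate transporter gene *Slc1a3* (66.1 ± 22.8 against 130 ± 3.05 CPM, mean ± SD, n = 3), while *Gfap* and *Aldh1l1* had log2 fold changes of 0.32 and 0.68 (adjusted p = 0.106 and 0.166). Endothelial markers summed to 2088 to 2221 CPM in MRL/lpr and 1891 to 1956 in MRL/mpj, with a median of 0.10. Among border macrophages, which also live in the choroid plexus, *Cbr2* (-1.68) was the 1 gene of 8 that fell past both thresholds, with sums of 52.8 to 55.1 and 59 to 68 CPM. *Fcrls* (-1.76) was the 1 gene of 10 for microglia. Of 5 erythrocyte markers *Alas2*, an enzyme of haem synthesis, rose (1.02), with sums of 685 to 1133 CPM in MRL/lpr and 610 to 673 in MRL/mpj. The part of such carried-over cells in the lower levels of the 10 genes was not tested.

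Within MRL/lpr the genes moved in groups from library to library. With the strain means subtracted, *Folr1*, *Clic6*, *Aqp1* and *Slc4a5* deviated by -0.36, -0.35, -0.53 and -0.16 log2 units in MRL/lpr replicate 1 and by 0.45, 0.25, 0.54 and 0.35 in replicate 3. *Otx2* and *Prlr* deviated by -0.32 and -0.44 in replicate 3, and *Kcnj13* went further down. The mean log2 deviation of the 10 genes stayed between -0.07 and 0.08 in the 6 libraries, as such opposite values cancel in it. Single genes with at least 50 counts in every library, which leaves out *Kcnj13*, had correlations of -0.16 (*Slc4a5*) to 0.78 (*Enpp2*) with that mean. Each of these genes is itself a part of the mean. Of the 13161 genes with at least 50 counts in every library, 150 outside the 10 genes had a correlation above 0.9 with that mean. The 10 most alike were *Zfand6*, *Mob1a*, *Filip1*, *Rtn4ip1*, *Inppl1*, *Zfp870*, *Pdf*, *Atp2b1*, *Stard13* and *Atl1*, and 0 of them were in the list of other choroid plexus genes. These correlations rest on 6 libraries that share their depth and composition, and are given as a description.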

How the data were processed

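RNA from CD11b-selected brain cells was sequenced from both ends (150 bp per read). The labels describe removal of ribosomal RNA and a stranded TruSeq kit, and the methods describe purified mRNA. The submitters' processing notes name Cutadapt 1.9.3, HISAT2 2.0.4, Cuffdiff 2.2.1 and GRCm38. The counting tool, its strand setting and the annotation are not given in the sources used here. The authors deposited raw counts for each gene as whole numbers, in which 1 read pair appears to be worth 4 counts. The authors also deposited FPKM values, used here for levels compared between genes and for 1 alternative. All columns were mapped to libraries by name.

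Symbols, coordinates, the longest transcript and its GC content came from GENCODE M21 (GRCm38), which matched 55141 of 55401 identifiers. Promoter windows came from RefSeq (GRCm38.p6).

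Counts of the 6 libraries were fitted with edgeR 4.0.16 in R 4.3.3 without covariates (filterByExpr at its default minima of 10 counts and a total of 15, TMM, robust quasi-likelihood test), and p-values were adjusted by Benjamini-Hochberg over 19554 genes. A call needed a log2 fold change of 1 or more in size together with an adjusted p under 0.05. CPM values were scaled by TMM. Relative levels used a prior count of 0.5 and a two-sided exact permutation test over libraries. The alternatives were DESeq2 1.42.0, other normalizations, no filter on low counts, counts divided by 4, a replicate block, each library left out, *Ttr* as reference, a prior count of 2 and FPKM. The removal of GC trends, the edgeR fit relative to the other 9 genes and the list without *Kcnj13* are later additions, made with the data in view. Scripts were first tested on simulated data.

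The 10 genes and all lists were chosen with earlier results of these data known, so their counts are descriptions. From the lists, the text names genes past both thresholds and highly expressed genes (the rule took the 3 most abundant of a list), and other list genes and the sex-linked genes were chosen after their values were seen. The genes most like the 10 are those with the highest correlation of within-strain deviations. Some list genes that the rule covers are not reported here.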

Additional observations from a re-analysis of the deposited data

How the results depend on the processing

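Under DESeq2, both other normalizations, no filter, counts divided by 4 and the removal of GC trends, 9 of the 10 genes were lower in MRL/lpr, and 8 of 9 were without *Kcnj13*. With 1 library left out the count was 8 to 10, the median log2 fold change of the 10 genes was -1.54 to -1.48, and the ratio of their summed CPM, 0.294 in the reported fit, was 0.29 to 0.301. That ratio was 0.27 without *Ttr*, and 0.27 with scaling by library size only, a scaling that put the median of all genes at -0.13 and that of the 10 genes at -1.61. The count of ependyma genes was 1 to 2 with 1 library left out, and was 1 without MRL/lpr replicate 2, MRL/mpj replicate 1 or MRL/mpj replicate 3. With 1 library left out, the other choroid plexus genes called lower numbered 13 to 17 and the transporters of fluid secretion 2 to 4.

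Relative to the other 9 genes, with 1 library left out, *Clic6* ranged from -0.03 (without MRL/lpr replicate 3) to 0.28, against 0.12 with all libraries. *Otx2* ranged from -0.11 (without MRL/lpr replicate 1) to 0.20, against 0.04, and was -0.01 without MRL/mpj replicate 1. The cause was not tested. The genes with relative levels that did not overlap numbered 4 with *Ttr* as reference, a prior count of 2, FPKM or GC trends removed, and 4 to 6 with 1 library left out. With *Ttr* as reference they were *Enpp2*, *Kl*, *Prlr* and *Slc4a5*. Strains separate more easily when 1 library is left out, so a count above 4 there is not a firmer result. The share of all genes with such separation was not computed.

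The replicate numbers showed no pairing of the libraries. Deviations of same-numbered libraries had correlations of -0.03, -0.01 and -0.02. Each MRL/lpr library correlated better with another number, but deviations cancel within a strain, so a negative value forces a positive one elsewhere. With the replicate number as a block, 9 of the 10 genes were called lower with a median of -1.50. In 6 genes the relative differences had the same sign in all 3 pairs, a looser rule than no overlap between strains. The block changed no call of the 10 genes.

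Depth limits the genes of low counts. *Kcnj13* had 36 counts in MRL/lpr replicate 3, and as 1 read pair appears to be worth 4 counts, that rests on fewer read pairs still.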
